A study of Mus musculus with 36 samples.

Results

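Rods of mice at postnatal day 14 (P14) were compared with rods at postnatal day 10 (P10), gene by gene, in RNA sequencing libraries of sorted cells. The comparison takes the 4 libraries labelled P10 and the 3 labelled P14, which are 7 of the 33 libraries with values in a study of fibroblasts turned into photoreceptor-like cells with small molecules. All came from mice of the strain Nrl-GFP, in which the rod-specific Nrl promoter drives green fluorescent protein, and the cells were sorted by that reporter, with 80 ng of total RNA per sample. No treatment is labelled for any rod, so the groups differ only in age as far as the labels go. The labels tie 5 of the 7 libraries to an older series and give no such tie for P10 replicate 3 and P14 replicate 3. They do not say whether replicates are separate animals or pools, so a p-value here speaks only of the scatter among the libraries, part of which may be technical.

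Rods are the photoreceptors of dim light. Each carries an outer segment, a stack of membrane discs in which a visual pigment catches photons and, through transducin and a phosphodiesterase, closes cyclic GMP-gated channels. In the mouse the outer segments grow and the eyes open during the second postnatal week, while the transcription factors Crx, Nrl and Nr2e3 hold the rod identity.

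Values are the authors' normalized CPM, and the depth of each library is unknown. They are not on a common total: summed over all genes they came to 870720 CPM in P10 replicate 4 and 1022875 CPM in P14 replicate 3, and to between 1122593 and 1435384 CPM in the other 5 libraries. Library values are given in the order of replicates 1 to 4 for P10 and 1 to 3 for P14. P10 replicate 4 and P14 replicate 3 stood apart from their groups, and results are therefore given with all 7 libraries and with the other 5. Over the genes tested, log2(CPM + 1) in P10 replicate 4 correlated at 0.932 to 0.957 with the other P10 libraries, against 0.984 to 0.987 among those, and P14 replicate 3 correlated at 0.907 to 0.932 with the other P14 libraries, against 0.983 between them. Both had the lowest mitochondrially encoded share, 3.87% and 3.95%, where the other 5 lay between 7.92% and 19.1%. Both also had less of short transcripts: genes whose longest transcript is under 1500 bases had a median difference of -0.69 (P10 replicate 4) and -0.89 (P14 replicate 3) on the log2 scale from the rest of their group, and those over 4000 bases of 0.26 and 0.21. A further difference was seen in the genes of the Y chromosome. The summed level of Ddx3y, Eif2s3y, Kdm5d and Uty was 95.7, 83.4, 78.7 and 322 CPM in the P10 libraries and 62.2, 43.6 and 230.5 CPM in the P14 libraries, so that it was highest in the same 2 libraries. In the 5 other libraries all 4 genes had a negative change from P10 to P14, and Eif2s3y was called lower (-1.09, adjusted p = 0.0187 in limma). These 4 genes were looked up after the values were seen, the sex of the animals is not labelled, and the part of the Y-linked difference in the results was not tested. Counts of calls with mitochondrially encoded genes removed and libraries rescaled to a common total stand beside the other scalings. So do counts with trends of transcript length and GC content removed. In bulk samples, fewer cells of a type and less RNA per cell cannot be told apart.

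With all 7 libraries, 47 of 12889 genes were called higher at P14 (0.365%) and 98 lower (0.76%), where a call needs a Benjamini-Hochberg adjusted p under 0.05 in limma and a fold of at least 2 on the log2(CPM + 1) scale. Without P10 replicate 4 and P14 replicate 3, 112 of 12508 genes were called higher (0.895%) and 199 lower (1.59%). Of the 47 and 98 calls, 46 and 96 were also called in the 5 libraries. The exceptions were Plcd3, a phospholipase that was higher, and 2 lower genes, the kinase gene Pak3 and the recombinase gene Rag1, which was not tested in the 5. Every P14 library lay above every P10 library in 894 of the 12889 genes (6.94%) and below in 1373 (10.7%). Genes named below as those that rose or fell most had to meet this condition. Their separation was therefore set by the choice and is no further result. The adjusted p-values of the 145 calls lay between 0.00686 and 0.0493, close to the threshold. The calls with 7 libraries therefore depended on each of them: without any 1 library, between 0 and 24 genes were called higher and between 0 and 37 lower, with none in either direction without P10 replicate 1, P10 replicate 2, P14 replicate 1 or P14 replicate 2. Leaving each of the 5 libraries out of the repeat gave 79 to 120 genes higher and 102 to 186 lower, with the fewest without P14 replicate 2. Leaving out a P14 library there leaves 1 P14 library, which is assumed to vary like the P10 libraries. Similar counts did not mean the same genes. Most of the 112 and of the 199 genes were not called in every one of these fits, although each kept its direction. Of the genes named below, those not called in every one include Gnat1, Pde6a, Mef2c, Impg1, Slc16a3, Usp2, Drd4, Opn1mw, Hspa1a, Irf7, Traf3ip3, Basp1 and Kbtbd11. Scaling moved the balance: 15 genes were higher and 16 lower after quantile normalization. With mitochondrially encoded genes removed and every library then rescaled to a common total, 36 were higher and 377 lower. The median change of all genes was then -0.24 instead of -0.02, and the parts of removal and rescaling in this were not separated. After removal of the trends of transcript length and GC content, 93 were higher and 138 lower.

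**Figure D1:**
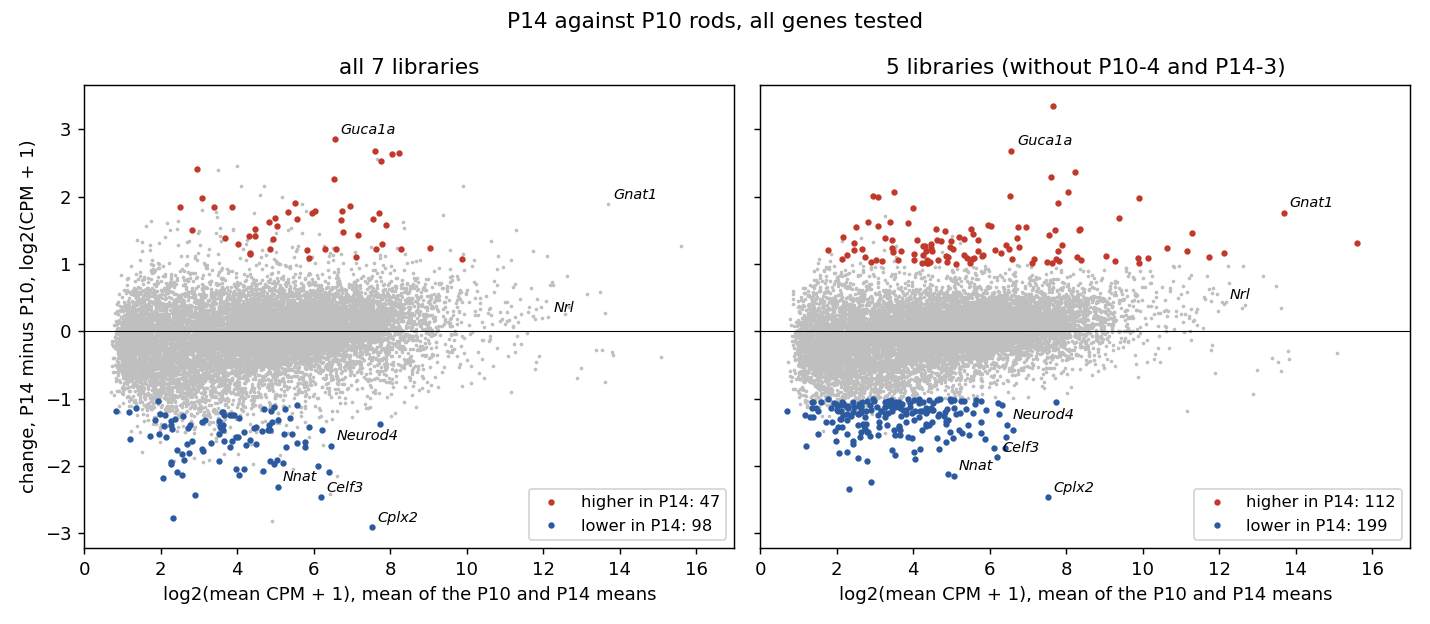
Change from P10 to P14 (vertical axis, log2(CPM + 1)) against the mean level (horizontal axis, log2) of every gene tested, with all 7 libraries (left) and the 5 libraries (right). Red and blue points are genes called higher or lower at P14, and Gnat1, near the right edge, is called only in the right panel.

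The genes that rose most at P14 were led by Guca1a, which encodes a guanylate cyclase activating protein, the calcium sensor that restarts cyclic GMP synthesis after light. It stood at 24.0, 19.0, 28.2 and 18.0 CPM in the P10 libraries and at 142, 171 and 184 CPM in the P14 libraries. All P14 libraries were thus above all P10 libraries, those that stand apart included, as required of the genes that rose most. The change was 2.85 (SE 0.21) on the log2 scale, 7.21-fold, with adjusted p = 0.00686, and 2.68 (SE 0.18) with adjusted p = 0.000183 in the 5 libraries. Gucy2f, a photoreceptor guanylate cyclase that such proteins switch on, stood at 328, 349, 272 and 299.9 CPM at P10 and at 799, 581 and 842 CPM at P14. Its groups did not overlap either, and the change was 1.23 (SE 0.21, adjusted p = 0.0424) with 7 libraries and 1.11 (SE 0.18, adjusted p = 0.00903) with 5. Guca1b, the paralogue of Guca1a, lies beside it on chromosome 17, with the 3′ ends of both genes facing each other 1590 bases apart (GENCODE M21, GRCm38). Guca1b had 425, 484, 501 and 108 CPM at P10 and 1639, 2114 and 893 CPM at P14, where P10 replicate 4 was far below the other P10 libraries. It was called only in the 5 libraries (1.99, SE 0.16, adjusted p = 0.000456), and had an adjusted p of 0.107 with 7 (2.16, SE 0.57).

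Promoters of 4 called genes are shown because Crx, the homeodomain factor of photoreceptors, binds the letters TAATCC: 2 risers that hold them, the riser Rdh12 and the faller Nnat, which do not. Sequences are from RefSeq (GRCm38.p6), from 250 bases before to 50 after the start site, 5′ to 3′ on the gene's strand, with TAATCC or its reverse complement GGATTA in capitals. The windows are chr17:47400557-47400856 (- strand) for Guca1a, chrX:142196887-142197186 (- strand) for Gucy2f, chr12:79208663-79208962 (+ strand) for Rdh12 and chr2:157559828-157560127 (+ strand) for Nnat.
Guca1a: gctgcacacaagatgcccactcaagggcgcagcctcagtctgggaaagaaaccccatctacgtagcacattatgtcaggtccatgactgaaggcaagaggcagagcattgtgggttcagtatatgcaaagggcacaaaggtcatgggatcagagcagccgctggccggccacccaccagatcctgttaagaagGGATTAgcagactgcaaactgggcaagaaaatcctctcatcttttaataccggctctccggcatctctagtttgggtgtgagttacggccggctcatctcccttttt
Gucy2f: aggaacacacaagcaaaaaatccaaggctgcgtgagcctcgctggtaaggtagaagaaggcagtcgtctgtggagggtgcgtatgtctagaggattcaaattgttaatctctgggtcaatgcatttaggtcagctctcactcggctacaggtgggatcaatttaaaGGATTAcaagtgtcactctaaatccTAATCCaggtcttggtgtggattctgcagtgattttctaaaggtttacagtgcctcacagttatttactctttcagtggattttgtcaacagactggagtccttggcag
Rdh12: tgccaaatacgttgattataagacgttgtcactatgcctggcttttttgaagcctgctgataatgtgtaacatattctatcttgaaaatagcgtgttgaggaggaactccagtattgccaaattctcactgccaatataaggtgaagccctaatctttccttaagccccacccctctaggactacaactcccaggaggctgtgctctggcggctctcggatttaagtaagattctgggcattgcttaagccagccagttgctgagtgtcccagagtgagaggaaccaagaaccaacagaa
Nnat: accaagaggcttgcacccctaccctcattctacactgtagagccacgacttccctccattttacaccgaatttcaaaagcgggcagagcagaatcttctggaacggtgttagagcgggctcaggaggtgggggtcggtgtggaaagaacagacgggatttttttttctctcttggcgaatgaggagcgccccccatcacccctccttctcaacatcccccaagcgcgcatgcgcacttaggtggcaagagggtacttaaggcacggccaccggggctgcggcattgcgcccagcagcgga
In Guca1a the capitals begin 57 bases before the start site, and in Gucy2f they begin 84 and 59 bases before it. Among all 32851 promoters of the table, 7.06% hold TAATCC on either strand, as do 711 of the 9896 tested genes with a promoter (7.18%). Of the called risers, 36 of 47 matched the table and 7 of them (19.4%) hold it, and of the fallers 70 of 98 matched and 7 (10%) hold it. With the calls of the 5 libraries these were 13 of 80 risers (16.2%) and 11 of 145 fallers (7.59%). Such a match is a description of the letters and not of binding.

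Phototransduction genes were among the risers. Of 24 members, 2 (Guca1a and Gucy2f) rose and none fell with 7 libraries, and the median change was 0.74, against -0.02 over all genes tested. With the 5 libraries 7 rose, none fell and the median was 0.80, against -0.01. Of all genes tested, 0.365% were called higher with 7 libraries and 0.895% with 5. All 24 had a positive change in both. After quantile normalization, however, 3 of them were negative with 7 libraries and 1 with 5, and likewise after removal of mitochondrially encoded genes with rescaling. Besides the 2 named, the risers in the 5 libraries included Guca1b, Gnat1, Slc24a1 and Pde6a.

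Gnat1, the transducin alpha subunit that couples the light signal to the phosphodiesterase, stood at 7291, 7327, 7661 and 1682 CPM at P10 and at 23328, 27106 and 10856 CPM at P14. The groups did not overlap, and P10 replicate 4 was far below the rest of its group. The change was 1.76 (SE 0.22, 3.39-fold) with adjusted p = 0.004 in the 5 libraries, and 1.89 (SE 0.67) with adjusted p = 0.211 in all 7. Pde6a, a catalytic subunit of the rod phosphodiesterase, had 2426, 2788, 2548 and 844 CPM at P10 and 5574, 5545 and 2867 CPM at P14, and changed by 1.11 (SE 0.17, adjusted p = 0.0082) in the 5 libraries. Slc24a1, the sodium, calcium and potassium exchanger that clears calcium from the outer segment, had 1698, 1604, 1528 and 544 CPM at P10 and 4839, 4044 and 2144 CPM at P14. Its change in the 5 libraries was 1.46 (SE 0.17, adjusted p = 0.00239). Neither gene passed with 7 libraries (adjusted p = 0.295 for Pde6a and 0.173 for Slc24a1).

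Other phototransduction genes did not pass in either fit. Sag, which encodes the arrestin that ends the light response, had 12232, 15132, 12466 and 5586 CPM at P10 and 16653, 16825 and 7602 CPM at P14, and Rcvrn, the calcium sensor recoverin, had 3598, 5024, 3771 and 1098 CPM against 5944, 6008 and 1522 CPM. For Gngt1, the transducin gamma subunit, the values were 3939, 5788, 3977 and 1204 CPM against 6367, 4854 and 1635 CPM. In all 3 genes P14 replicate 3 fell inside the P10 range. Their changes in the 5 libraries were 0.34 (SE 0.24), 0.55 (SE 0.21) and 0.31 (SE 0.24), with adjusted p = 0.437, 0.157 and 0.482. Grk1, a receptor kinase of photoreceptors, and Cnga1, the channel's alpha subunit, differed by 0.96 and 0.97 there, under the fold of 2.

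The main transcription factors of the rod programme were not called. Nrl stood at 4149, 5848, 4523 and 1697 CPM at P10 and at 5874, 6824 and 1943 CPM at P14, Nr2e3 at 2217, 2834, 2293 and 2041 against 2289, 2527 and 1022 CPM, and Crx at 2032, 2219.5, 2028 and 2060.0 against 2568, 2418 and 2064 CPM. For Nrl and Nr2e3 the groups overlapped, and for Crx P14 replicate 3 lay among the P10 libraries. Changes with 7 libraries were 0.21 (SE 0.59, adjusted p = 0.915), -0.36 (SE 0.37, adjusted p = 0.727) and 0.17 (SE 0.25, adjusted p = 0.826). The direction of each turned under at least 1 other setting, so no direction is given. Of 14 factors in the list none was called with 7 libraries, and with 5 only Mef2c was, a MADS-box factor. Mef2c had 6.96, 3.94, 13 and 7.86 CPM at P10 and 22.6, 22.3 and 69.6 CPM at P14, with no overlap, and a change of 1.52 (SE 0.36, adjusted p = 0.0417) in the 5 libraries.

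**Figure D2:**
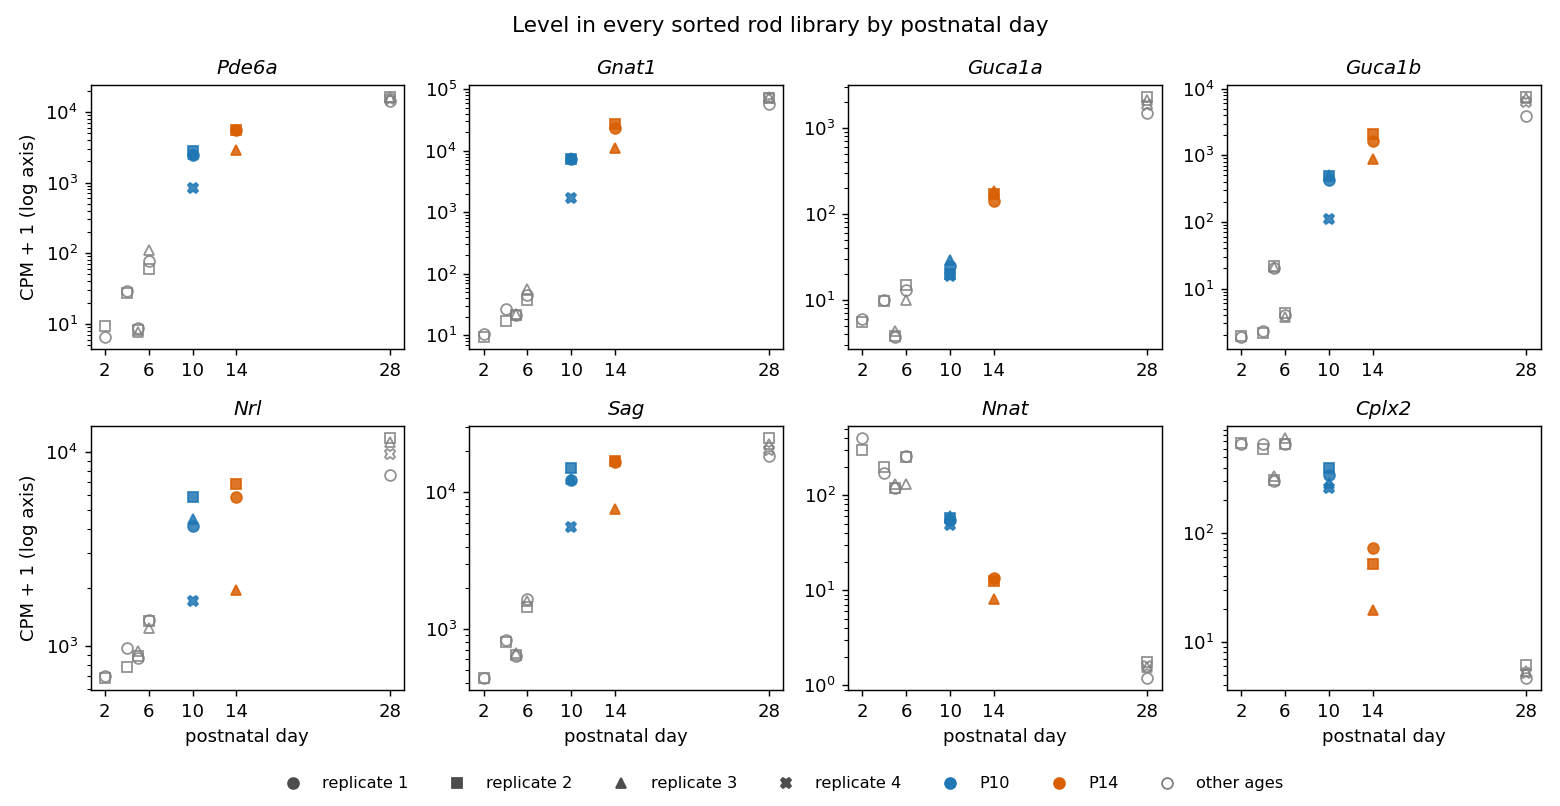
Level of 8 genes (CPM + 1, log axis) in every sorted rod library against postnatal day, with marker shapes for replicates. In Pde6a, Gnat1, Guca1b, Nrl and Sag the P10 cross (replicate 4) and the P14 triangle (replicate 3) sit below the rest of their groups, whereas in Guca1a the P14 libraries lie together at 142 to 184 CPM.

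Outer segment and retinoid genes came next. Of 28 tested genes of the discs, axoneme and connecting cilium, none was called with 7 libraries (median 0.45), and with 5 libraries 2 rose, Impg1 among them (median 0.46), where 0.895% of all genes were called higher in that fit. Impg1, a proteoglycan of the matrix around photoreceptors, had 804, 970.2, 762 and 474 CPM at P10 and 1948, 1656 and 914 CPM at P14, and changed by 1.09 (SE 0.17, adjusted p = 0.00726). With P14 replicate 3 Impg1 overlapped P10. In the retinoid cycle, which recycles the chromophore, 1 of 8 genes rose in both fits, against 0.365% and 0.895% of all genes. This was Rdh12, a retinol dehydrogenase, at 591, 633, 636 and 573 CPM at P10 and 1267, 1373 and 1191 CPM at P14, a change of 1.07 (SE 0.20, adjusted p = 0.0485) with 7 libraries and 1.09 (SE 0.14, adjusted p = 0.00397) with 5. Abca4, the transporter of retinoids out of the discs, differed by 0.98 (SE 0.15, adjusted p = 0.00878) in the 5 libraries, just under the fold of 2.

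Among 16 ion channels, pumps and transporters of rods, 1 member rose with 7 libraries, where 0.365% of all genes were called higher. This was Kcnj14, an inwardly rectifying potassium channel. It had 97.5, 110.0, 109.9 and 33.8 CPM at P10 and 504, 598 and 427 CPM at P14. The groups did not overlap, as required of the genes that rose most. The change was 2.65 (SE 0.41, adjusted p = 0.0365) with 7 libraries and 2.37 (SE 0.14, adjusted p = 0.000123) with 5. The taurine transporter Slc6a6 joined it in the 5 libraries, with 1092, 998, 915 and 607 CPM at P10 and 2632, 2090.5 and 2062 CPM at P14 (1.23, SE 0.17, adjusted p = 0.00489). Of 25 genes of the ribbon synapse, through which rods signal to bipolar cells, none was called in either fit, and the medians were 0.41 and 0.37.

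In the list of glycolysis, lactate and creatine, 2 of 27 genes rose and none fell with 7 libraries (median 0.35), and 3 rose with 5 (median 0.54), where 0.365% and 0.895% of all genes were called higher. Hk2, the hexokinase that photoreceptors use to trap glucose, stood at 57.0, 52.0, 62.8 and 38.4 CPM at P10 and at 168, 169 and 243 CPM at P14. Slc16a1, which carries lactate and pyruvate across membranes, stood at 89.3, 94.3, 98.3 and 71.6 CPM at P10 and at 252, 259 and 335 CPM at P14. Neither overlapped between ages, which was required of Hk2 as 1 of the genes that rose most. The changes were 1.86 (SE 0.23, adjusted p = 0.0314) and 1.66 (SE 0.19, adjusted p = 0.0237) with 7 libraries. The related carrier Slc16a3 passed in the 5 libraries alone (1.06, SE 0.25, adjusted p = 0.0421). Respiratory chain genes were not called: of 13 mitochondrially encoded genes all had a negative change (medians -0.38 and -0.49) and of 24 nuclear-encoded ones 21 did with 7 libraries (median -0.43) and 19 with 5 (median -0.27). The nuclear-encoded medians were -0.26 and -0.20 without length and GC trends, and -0.55 and -0.41 after quantile normalization. Ribosomal protein genes moved the same way, with 20 of 20 negative with 7 libraries and 19 with 5 (medians -0.56 and -0.25) and none called.

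The remaining risers named by size were not members of the phototransduction list. Gpsm2, a scaffold that binds inhibitory G protein alpha subunits, had 57.8, 55.4, 63.0 and 31.2 CPM at P10 and 279, 305 and 410.0 CPM at P14. Stk35, a kinase gene, had 72.3, 63.9, 60.8 and 58.9 CPM against 310.4, 247 and 828 CPM, and Pdzph1, which encodes PDZ and PH domains, had 69.0, 63.8, 73.1 and 37.2 CPM against 261, 258 and 604 CPM. In the last 2 genes P14 replicate 3 was far above the other P14 libraries. The groups were apart without it as well, as required of the genes that rose most. Changes in the 5 libraries were 2.06 (SE 0.15) and 1.91 (SE 0.13) against 2.63 (SE 0.38) and 2.53 (SE 0.36) in 7. Aqp1, a water channel, rose from 37.5, 35, 34.6 and 19.1 CPM to 136, 158 and 159.7 CPM (2.27, SE 0.25, adjusted p = 0.0201). Fgf2, a growth factor induced in stressed photoreceptors, rose from 24.1, 23.4, 24.9 and 14.8 CPM to 69.9, 65.6 and 76.1 CPM (1.67, SE 0.21, adjusted p = 0.0314). It was the 1 member called among 7 tested genes of injury and glial stress, where 0.365% of all genes were called higher. Of these 7 genes, 5 had a negative change both with 7 libraries and with 5 (medians -0.26 and -0.41). Rgs20, a regulator of G protein signalling, Klhl3, an adaptor of a ubiquitin ligase, Col4a4, a basement membrane collagen, and Sh2d1a, an adaptor protein of lymphocytes, rose by 1.90, 1.84, 1.98 and 2.41, the last 2 from means of 2.38 and 1.26 CPM at P10. Hist1h2be rose by 1.84 as well, but belongs to a family of near-identical histone genes among which reads can be split.

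**Figure D3:**
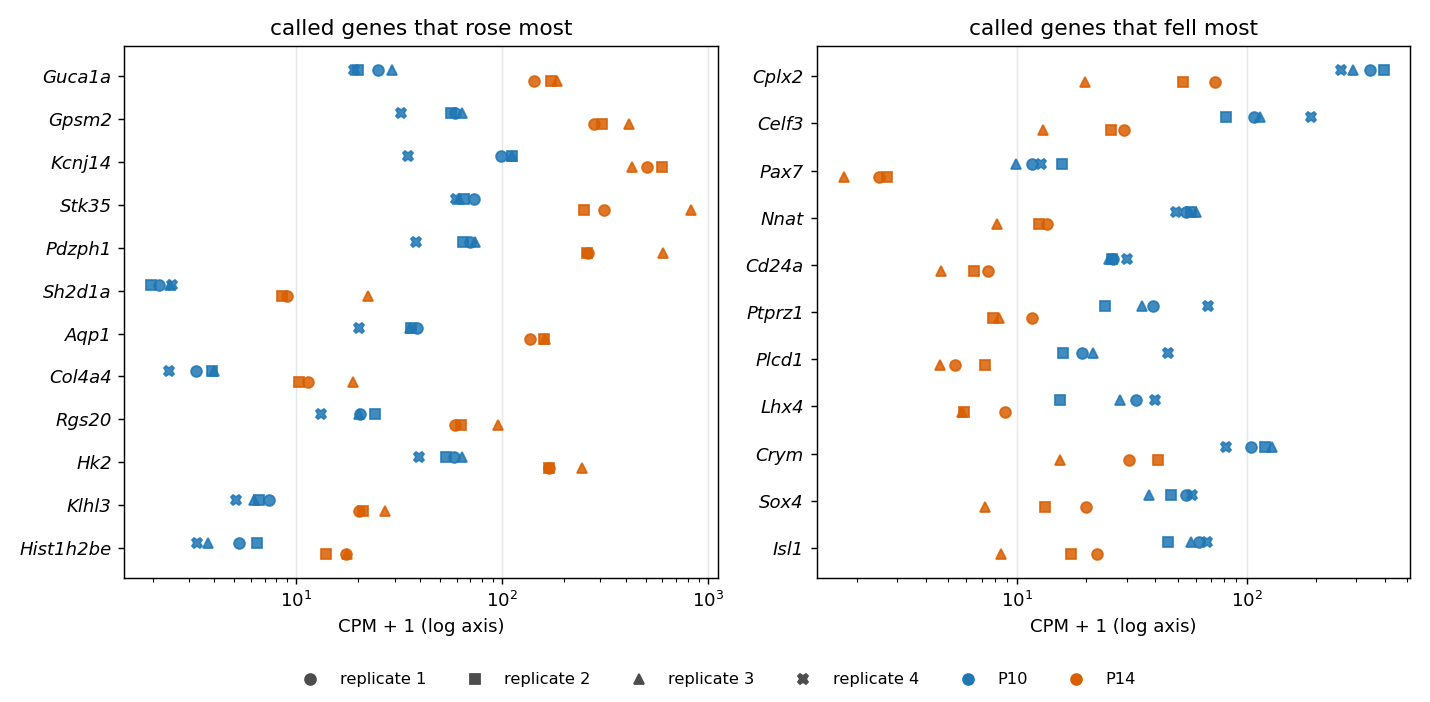
Level (CPM + 1, log axis) in each P10 library (blue) and P14 library (orange) of the 12 called genes that rose most (left) and 11 of the 12 that fell most (right), with marker shapes for replicates. In every row the blue and orange markers are apart, a condition of the choice, and the P14 triangle (replicate 3) is often the most extreme, as for Stk35 at 828 CPM.

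Genes of immature neurons were among the fallers. Of 22 tested members, 6 fell and none rose with 7 libraries (Nnat, Cd24a, Sox4, Stmn1, Crmp1 and Dpysl5), with a median change of -1.06, where 0.76% of all genes were called lower and the median was -0.02. With the 5 libraries Tubb2b, Tmsb10, Marcksl1 and Basp1 joined them, 10 in all, with a median of -0.79, where 1.59% of all genes were called lower and the median was -0.01. Nnat, which encodes a small membrane protein of developing neurons, stood at 53.4, 55.9, 59.1 and 48.0 CPM at P10 and at 12.5, 11.4 and 7.16 CPM at P14. The groups did not overlap, as required of the genes that fell most. The change was -2.31 (SE 0.21, adjusted p = 0.018) with 7 libraries and -2.14 (SE 0.15, adjusted p = 0.000183) with 5. Nnat lies within Blcap on the other strand, and the mean of Blcap was 70.3 CPM at P10 and 66.0 CPM at P14.

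Cd24a, a surface glycoprotein of young neurons, had 25.2, 24.9, 24.1 and 29.1 CPM at P10 and 6.45, 5.48 and 3.65 CPM at P14. Sox4, a factor of newborn neurons, had 53.4, 45.7, 36.4 and 56.5 CPM against 18.8, 12.2 and 6.21 CPM, and Stmn1, a destabilizer of microtubules, had 81.1, 84.1, 94.2 and 71.3 CPM against 29.7, 29.3 and 16.4 CPM. No P14 library reached the lowest P10 library in any of them, which was required of Cd24a and Sox4 among the genes that fell most. The changes with 7 libraries were -2.14, -1.97 and -1.72 (adjusted p = 0.018, 0.0421 and 0.032). Tubb2b, a neuronal tubulin, had 50.7, 57.5, 51.4 and 38.4 CPM at P10 and 12.1, 10.9 and 1.33 CPM at P14. It fell by 2.12 on the log2 scale in the 5 libraries (adjusted p = 0.000224) and missed the threshold with 7 (-2.81, SE 0.56, adjusted p = 0.0585), where P14 replicate 3 was far under the other 2. Dcx, doublecortin, did not pass the fold in the 5 libraries (-0.86, SE 0.20, adjusted p = 0.0395). In the list of axon guidance and adhesion, 1 of 20 genes fell in both fits, where 0.76% and 1.59% of all genes were called lower. This was the ephrin receptor Epha3, from 8.04, 7.03, 8.13 and 10.9 CPM to 2.23, 1.69 and 0.812 CPM (-1.91, SE 0.26, adjusted p = 0.032). Of the 20 genes in that list, 19 had a negative change with 7 libraries and 17 with 5 (medians -0.60 and -0.47).

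The largest fall of all among the named genes was that of Cplx2, a complexin of conventional synapses that clamps vesicle release. It stood at 344, 394, 289 and 258 CPM at P10 and at 72.0, 51.6 and 18.8 CPM at P14. The groups did not overlap, as required of the genes that fell most. The change was -2.91 (SE 0.41, adjusted p = 0.032) with 7 libraries and -2.46 (SE 0.18, adjusted p = 0.000241) with 5. Celf3, a neuronal RNA-binding protein, fell from 107, 80.6, 113 and 189 CPM to 28.2, 24.7 and 11.9 CPM (-2.46, SE 0.36, adjusted p = 0.0328). Celf3 overlaps Riiad1 on the other strand by 2047 bases, and Riiad1 fell in the 5 libraries too (-1.59, SE 0.19), so reads of the pair may not be separable if strand was not used. Smaller in level was Pax7, a developmental transcription factor, at 10.6, 14.7, 8.84 and 11.7 CPM against 1.48, 1.70 and 0.746 CPM. Crym, which binds thyroid hormone, Ptprz1, a receptor phosphatase of glia and precursors, and Plcd1, a phospholipase, fell by 2.00, 2.08 and 2.05 on the log2 scale.

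Several of the fallers are regulators of retinal precursors or of other retinal neurons. Isl1, which acts in bipolar and ganglion cells, stood at 60.8, 44.2, 56.0 and 66.4 CPM against 21.3, 16.1 and 7.53 CPM, and Lhx4, of bipolar cells and cones, at 32.1, 14.3, 27.1 and 38.9 CPM against 7.84, 4.85 and 4.74 CPM. The groups were separate in both, as required of the genes that fell most, with changes of -1.95 and -2.04 (adjusted p = 0.0387 for each). Neurod4, a proneural factor, fell from 128, 115, 124 and 163 CPM to 51.0, 41.8 and 29.7 CPM (-1.70, SE 0.23, adjusted p = 0.0314). Of 12 tested progenitor genes 2 were called, both lower, in each fit, where 0.76% and 1.59% of all genes were called lower. All 12 had a negative change with 7 libraries and 11 with 5 (medians -0.94 and -0.72). Gnb3, a G protein beta subunit of cones and ON bipolar cells, fell from 276, 286, 300.0 and 344 CPM to 131, 145 and 81.2 CPM (-1.37, SE 0.23, adjusted p = 0.0397).

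Markers of other retinal cells were followed as well. The 14 bipolar markers, Isl1 among them, summed to 511 to 664 CPM in the P10 libraries and 368 to 470.2 CPM in the P14 libraries. Of these 14, 2 fell with 7 libraries and 3 with 5 (medians -0.70 and -0.74). Of all genes tested, 0.76% and 1.59% were called lower (medians -0.02 and -0.01). Trpm1, the channel of ON bipolar cells, went from 44.1, 41.1, 41.6 and 41.8 CPM to 23.6, 18.7 and 21.9 CPM (-0.95, SE 0.16, adjusted p = 0.0387), just under the fold of 2, and Grm6, their glutamate receptor, had 49.8, 33.6, 50.7 and 38.5 CPM against 24.0, 22.7 and 12.7 CPM (-1.12, SE 0.27, adjusted p = 0.0821). Of 12 cone markers Gnb3 fell in both fits and Opn1mw, the cone opsin, rose in the 5 libraries (1.02, SE 0.19, adjusted p = 0.0176), and their sum was 694 to 868 CPM at P10 and 705 to 935 CPM at P14. None of the 12 Müller glia markers was called, with sums of 905 to 1282 CPM and 925 to 1048 CPM. Of these 12, however, 8 had a negative change in each fit (medians -0.57 and -0.54). Glul, 1 of the 4 with a positive change, had means of 372 CPM at P10 and 488 CPM at P14. Sums for endothelium and pericytes were 127 to 155 CPM at P10 and 60.0 to 106 CPM at P14, with Cspg4 under 1 CPM in all 7 libraries and no member called. Those of amacrine, horizontal and ganglion cells were 199 to 271 and 215 to 284 CPM, and those of pigment epithelium, microglia, red blood cells and lens stayed under 50 CPM, with Best1, Aif1, Cryba1 and Crybb1 under 1 CPM in all 7 libraries. The part of these cells in the falls of Isl1 and Gnb3 was not tested.

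**Figure D4:**
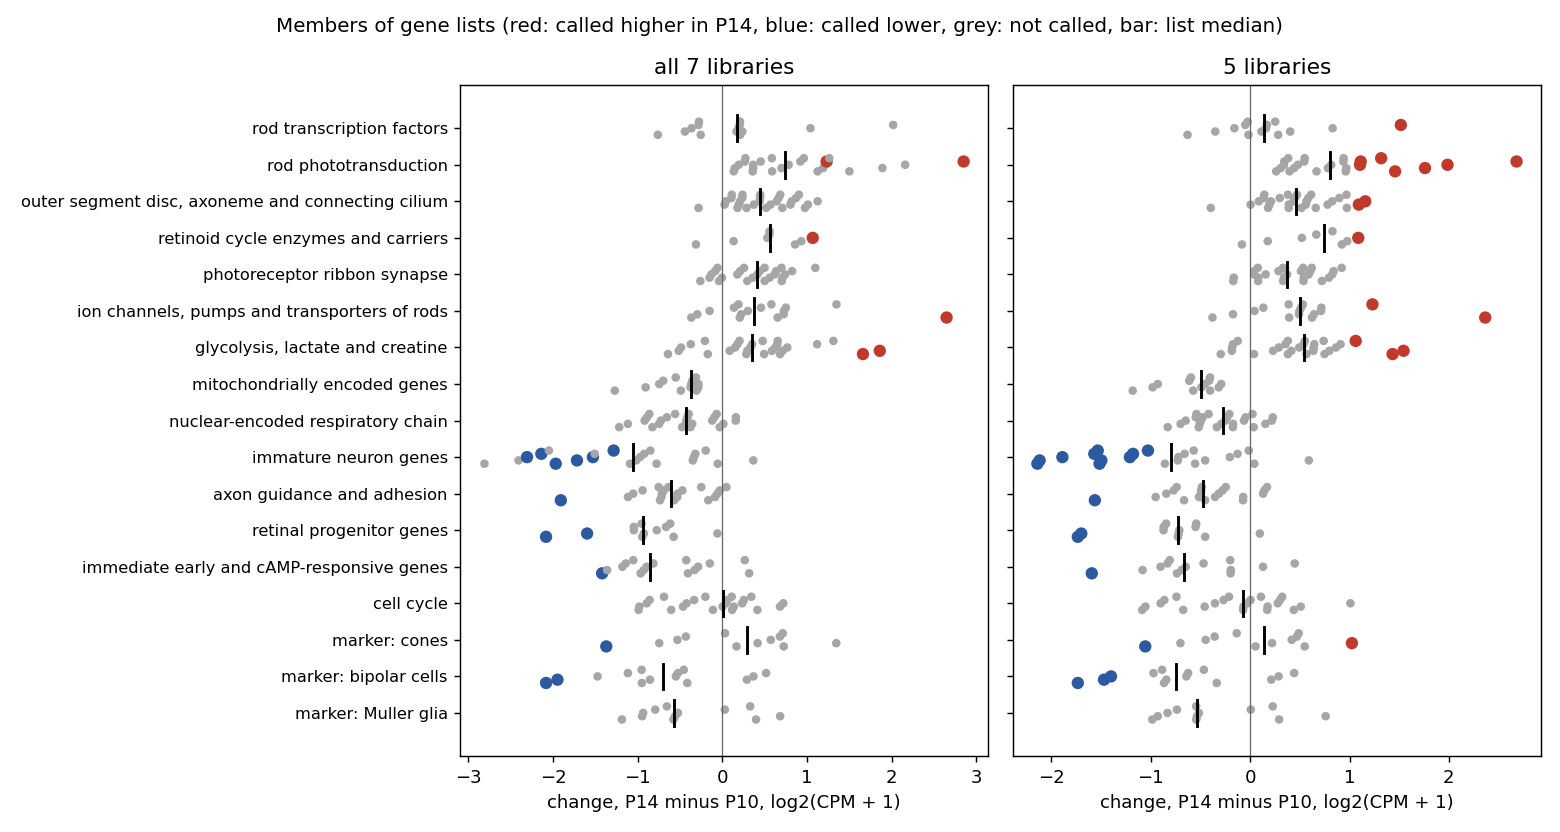
Change from P10 to P14 (log2(CPM + 1)) of each tested member of 17 gene lists, with all 7 libraries (left) and with 5 (right). Red and blue dots are members called higher or lower, grey dots are not called, and the black bar is the list's median, which runs from 0.74 for phototransduction to -1.06 for immature neuron genes on the left.

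Other lists held few calls. Fos, the immediate early factor, fell from 74.8, 73.0, 80.3 and 105 CPM to 25.2, 23.8 and 45.6 CPM (-1.42, SE 0.26, adjusted p = 0.0485). It was the 1 of 16 such genes called, where 0.76% of all genes were called lower. Of these 16, 14 had a negative change (median -0.86), as did 12 of the 14 tested with 5 libraries (median -0.67). Egr1 did not pass with 7 libraries (-1.18, SE 0.25, adjusted p = 0.0697). No gene of the cell cycle list, with 23 tested, was called in either fit (medians 0.0028 and -0.07). The list does not hold every such gene. Cdk4 and Cks1b, which are outside it, were called lower in the 5 libraries (-1.16 and -1.05), and further genes outside it were not counted. Among clock genes, 0 of 19 were called with 7 libraries, and Usp2, a deubiquitinase with a daily rhythm, rose in the 5 (1.14, SE 0.23, adjusted p = 0.0212). Drd4, the dopamine receptor of photoreceptors, rose there too, with 150.4, 158, 152 and 80.3 CPM at P10 and 288, 362 and 205 CPM at P14 (1.07, SE 0.14, adjusted p = 0.0044). The hour of collection is not labelled. Irf7, an interferon-induced factor, and Hspa1a, a heat shock protein with a near-identical paralogue, rose by 1.36 and 1.00 in the 5 libraries. Atp2b4, a calcium pump, had the largest change of that fit (3.35, SE 0.78, adjusted p = 0.0384), but its P14 values of 145, 738 and 145 CPM rest on P14 replicate 2, and it was called in 2 of the 5 fits that leave out another library. Of the remaining genes that passed only in the 5 libraries, Traf3ip3 and Glb1l3 rose by 2.07 and 1.83, and Nme2 and Kbtbd11 fell by 1.92 and 1.79 on the log2 scale, with Kbtbd11 at 51.0 CPM in P10 replicate 3 and at 14.8 to 17.7 CPM in the other P10 libraries.

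The libraries left out of the repeat gave a measurement it had not used. Of the 112 genes called higher in the 5 libraries, 110 were also higher in P14 replicate 3 than in P10 replicate 4 (98.2%), and of the 199 called lower, 195 were lower (98.0%), where 43.9% of all tested genes were higher and 56.1% lower. The median difference within this pair was 1.88 for the genes called higher, -1.74 for those called lower and -0.08 for all. The exceptions were Ptprn and AC154550.1 among the former, and the latter included Ppp4r4, Cenpu and Nckap5. The pair is 1 library against 1, so no test was made.

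**Figure D5:**
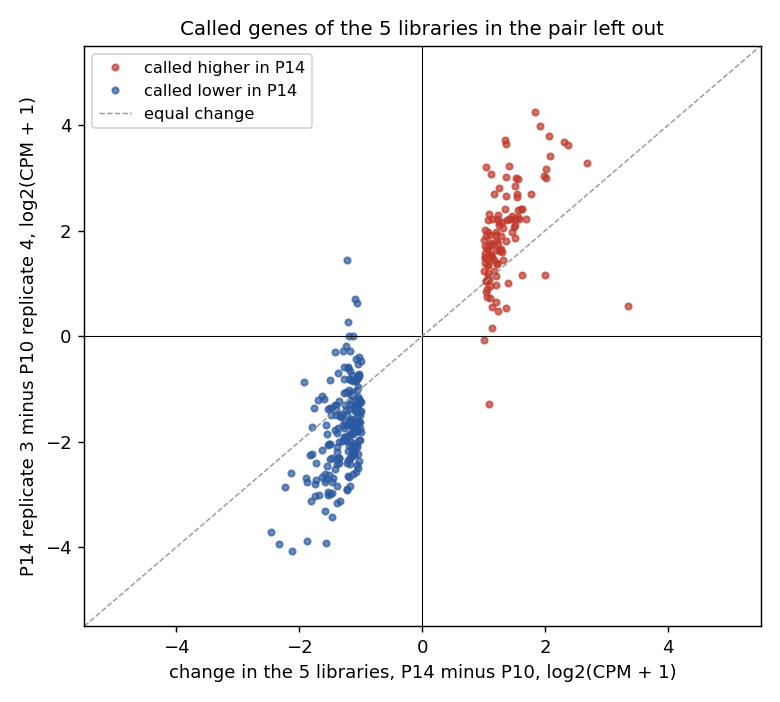
Difference between P14 replicate 3 and P10 replicate 4 (vertical axis) against the change in the 5 other libraries (horizontal axis), both as log2(CPM + 1), for the genes called in those 5. Nearly all points lie in the upper right and lower left fields, 110 of 112 called higher and 195 of 199 called lower, and Atp2b4 is the point furthest to the right.

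The called genes also lay along the longer course of rod ages. Each of the 47 genes called higher with 7 libraries had a higher mean at P28 (4 libraries) than at P6 (3 libraries), and each of the 98 called lower had a lower one, where 44.2% and 55.8% of all tested genes did. Neither age shares a library with the comparison. Guca1a had a mean of 11.6 CPM at P6 and 1938 CPM at P28, Kcnj14 of 1.66 and 1869.8 CPM, and Hk2 of 12 and 1718 CPM. On the falling side Cplx2 had 689 and 4.36 CPM, Nnat 213 and 0.523 CPM, and Neurod4 791 and 4.99 CPM. A few genes called in the 5 libraries did not follow a single course. Opn1mw had 0.152 CPM at P6, means of 15.3 and 42.1 CPM at P10 and P14, and 9.40 CPM at P28, and Atp2b4 had 77.2 CPM at P6 and 45.4 CPM at P28.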

How the data were processed

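RNA was sequenced from sorted rods. Of 36 listed samples, 33 have a column in the deposited table, and 7 of these (4 P10, 3 P14) enter the comparison; 0 value columns were left unused. Per the submitters' processing notes, kallisto was used for quantification. The sources used here do not give its version, index, genome build, strand setting or the way libraries were scaled. The table holds the authors' normalized CPM, a signal for each of 15289 genes in each library. The values are not whole, so sequencing depth and its precision are unknown, and count models were not used. In 105 rows every value equals that of an earlier row, 82 of them under the same symbol, which the lists count once; no such row was called.

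The log2 of CPM plus a pseudocount of 1 was analysed. Genes reaching 1 CPM in 3 or more of the fitted libraries were tested with limma 3.58.1 in R 4.3.3 (two-sided, moderated variance with a mean trend), and p-values were adjusted after Benjamini and Hochberg over every gene tested. The fits that left a further library out of the 5 asked for 1 CPM in only 2 or more libraries, so they tested more genes than the fit of 5. Calls required an adjusted p under 0.05 together with a 2-fold or larger change on this scale, which understates the change of low genes. On simulated data for P14 against P10 over 12889 genes, 58% of genes changed 3-fold were recovered, 82% at 5-fold and 98% at 10-fold, with 6 unchanged genes called. The changed genes were drawn from those with a mean above 10 CPM, and recovery at 2-fold is not given. Simulated libraries varied independently, without the shared deviations of P10 replicate 4 and P14 replicate 3. These figures may therefore not hold for the real libraries. Coordinates and transcript lengths came from GENCODE M21 (GRCm38), matched by identifier for 99.05% of genes.

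Named genes were 9 rod genes given always, the 12 that rose and 12 that fell most among called genes whose groups do not overlap and whose mean reaches 10 CPM at either age (predicted genes passed over), the 5 largest gains and losses of CPM, up to 4 called members of each of 38 lists, and the 5 that rose and fell most only without P10 replicate 4 and P14 replicate 3. Further list members were named for their level. The members, lists and rules were chosen with earlier results of these data known. Alternatives covered the libraries, filter, pseudocount, scaling, variance prior, library weights, threshold and replicate block. Removal of length and GC trends (loess, span 0.5), a filter on the library mean, and the alternatives to the fit of 5 libraries were added after seeing the data. P3 rods were not analysed here. A few genes that the rules name are not reported here.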

Additional observations from a re-analysis of the deposited data

Results flagged for a closer look

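Among 76 groups of 4 P10 libraries examined, 1 per named gene, 8 held a library far from the others by Dixon's criterion, and chance flags about 1 in 20 groups. P10 replicate 4 was the low library in 6 of them: Gnat1 at 1682.3 CPM against 7291 to 7661 CPM in the others, Kcnj14 at 33.8 CPM against 97.5 to 110.0 CPM, Aqp1 at 19.1 CPM against 34.6 to 37.5 CPM, Fgf2 at 14.8 CPM against 23.4 to 24.9 CPM, Slc24a1 at 544 CPM against 1528 to 1698 CPM, and Drd4 at 80.3 CPM against 150.4 to 158 CPM. Crx was high in P10 replicate 2, at 2219.5 CPM against 2028 to 2060.0 CPM. Kbtbd11 was high in P10 replicate 3, at 51.0 CPM against 14.8 to 17.7 CPM, and its fall from P10 to P14 in the 5 libraries includes that value.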

How the results depend on the processing

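Counts are given as genes higher, then lower, at P14, beside 47 and 98 with all 7 libraries. They were 112 and 199 without P14 replicate 3 and P10 replicate 4, and 0 to 24 and 0 to 37 without each library in turn. Only libraries tied to the older series gave 1 and 0, all rod groups in 1 fit 153 and 386, and array weights 121 and 252. A test against a fold of 1.5 gave 1 and 0, and quantile normalization 15 and 16. Removal of mitochondrially encoded genes gave 36 and 377, and every value given without these genes includes rescaling of each library to a common total. Removal of length and GC trends gave 93 and 138, a pseudocount of 5 gave 48 and 63, and no filter on low values 32 and 48. With the replicate number as a block the counts were 0 and 0, with 1985 genes at an unadjusted p under 0.05 against 2013 without it in limma. Deviations of same-numbered libraries from their group means correlated at 0.34, 0.59 and -0.46. Those means include P10 replicate 4 and P14 replicate 3, whose deviations correlated at 0.80. The check therefore cannot decide whether the numbers pair libraries. Median-of-ratios scaling, a pseudocount of 0.1, the stricter filter, the filter on the library mean, no mean trend and no fold threshold stayed within 1.5 times of both counts. In the 5 libraries, beside 112 and 199, the counts were 79 to 120 and 102 to 186 without each library, 96 and 122 after quantile normalization, 47 and 515 without mitochondrially encoded genes, and 67 and 60 with a pseudocount of 5. Among 76 named genes, the direction turned only in 6 that were not called with all 7 or with 5 libraries. Nrl gave -0.065 after quantile normalization, -0.0287 without mitochondrially encoded genes, -0.16 with the block and -0.16 to 0.78 without each library. Nr2e3 gave 0.0391 with the older series alone and -0.61 to 0.0465 without each library. Crx gave -0.0505 and -0.0703 under those 2 scalings, and Gngt1 -0.14 and -0.0441. With the block, Sag gave -0.0385, Rcvrn -0.11 and Gngt1 -0.28, and without each library -0.0385 to 0.65, -0.11 to 1.02 and -0.28 to 0.78. The block drops P10 replicate 4, which has no partner. For the other differences the cause was not tested. Depth is unknown, so what it limits cannot be stated.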
